A study of Mus musculus with 6 samples.

Results

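The 35 genes described here encode the glucose and lactate transporters, the isoforms of each glycolytic step, the enzymes of the pentose phosphate pathway and a pair of regulators, Hif1a and Pdk1. They were listed by symbol, and all 35 have a row among the 51912 genes listed in each count file. The data are RNA-seq read counts of GFP+ cells from the aorta-gonad-mesonephros region (AGM), the embryonic tissue around the dorsal aorta in which blood stem cells arise, of MacGreen mouse embryos at stage E10.5. MacGreen embryos carry an EGFP transgene driven by the Csf1r promoter, which marks macrophages but can be active in other myeloid cells, and all 6 libraries share it. CD206, the mannose receptor encoded by Mrc1, split the sorted cells into GFP+ cells without it (CD206neg, n = 3 libraries) and with it (CD206pos, n = 3 libraries). Each library pooled 3 to 5 AGM, and the titles number the libraries 1 to 3 in both groups, read here as the 3 litters named in the series' design. The dissected tissue was kept in collagenase for 45 min at 37 degrees Celsius before sorting, in both groups.

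Glycolysis splits glucose into pyruvate, which is reduced to lactate or enters mitochondria, and several of its steps can be carried by alternative isoforms encoded by separate genes. The pentose phosphate pathway branches off after the hexokinase step and supplies NADPH and ribose for reductive reactions and nucleotide synthesis. Macrophages are known to raise glycolysis on inflammatory stimulation, in part through the hypoxia-inducible factor HIF1, and to use NADPH in oxidant production and defence. Transcript counts do not measure flux through any of these steps.

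Total reads in genes ranged from 16730846 to 18214283 per library, so that 3 reads stand for 0.16 to 0.18 CPM. CPM are read counts set relative to library size, scaled here by the trimmed mean of M values (TMM). Levels of different genes are compared only as CPM per kb of exon length, taken over all annotated exons of a gene. Transcripts in use can be shorter, so levels and shares set between genes depend on these lengths. Mrc1 was at 51.6, 119 and 112 CPM in CD206neg (litters 1 to 3) and at 1458, 1792 and 1506 CPM in CD206pos, in the direction of the sort. The groups also differed in markers of other cells: the summed level of 8 blood progenitor genes was 754 to 1008 CPM in CD206neg and 82.9 to 134 CPM in CD206pos, with Kit at 73.0 to 102 CPM against 0 reads. Most of the CD206neg sum was Cd34, at 488.5 to 736 CPM against 18.3 to 49.95 CPM. Of the 8 genes, 6 were called lower, while Runx1 overlapped between the groups (76.0 to 97.1 CPM against 57.3 to 83.3 CPM). The sum of 10 granulocyte precursor genes was 1863 to 2857 CPM against 17.5 to 69.7 CPM, 5 of them at 0 reads in all CD206pos libraries. Most of the CD206neg sum was Mpo, at 1495 to 2281 CPM against 3.30 to 28.6 CPM. Of the genes at 0 reads, Ctsg and Camp also had few reads in CD206neg (0 to 2 and 0 to 140 in a library) and were not tested. Of the 7 tested, 6 were called lower. The sum of 11 macrophage genes was 5252 to 6283 CPM in CD206neg and 10650 to 14140 CPM in CD206pos, and 7 of the 11 were called higher. The sum of 11 dissociation response genes was 5678 to 6246 CPM against 8649 to 10640 CPM, and 5 of them were called higher. Endothelial genes (8) summed to 175 to 337 CPM against 64.6 to 89.6 CPM, and megakaryocyte genes (8) to 77.6 to 107 CPM against 2.32 to 9.97 CPM. Mesenchyme genes (8) summed to 4.90, 8.98 and 79.8 CPM in CD206neg litters 1 to 3 and to 11.8, 1.83 and 62.5 CPM in CD206pos, so both litter 3 libraries stood apart. Epithelial genes (6) summed to 11.4 to 31.3 CPM against 2.00 to 8.39 CPM. Erythroid, muscle and neuron genes summed to at most 15.85 CPM in every library. Erythroid genes went both ways: Gata1 was called lower (1.64 to 6.26 CPM against 0 reads, edgeR adjusted p = 0.0201). Klf1 was at 1.52 to 2.02 CPM against 0 to 0.23 CPM (edgeR adjusted p = 0.173). Epor was higher, at 0 to 2.03 CPM against 9.60 to 11.7 CPM (edgeR adjusted p = 0.122). The sum of 10 cell cycle genes was 4370 to 4670 CPM against 3868 to 4091 CPM, and 0 of the 10 were called by edgeR or DESeq2 (2 had an unadjusted edgeR p under 0.05). The part that these differences in cell content have in the results below was not tested, and in bulk libraries fewer cells of a type cannot be told apart from less RNA per cell.

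Hexokinases trap glucose in the cell by phosphorylation and open glycolysis. Their upstream sequences are shown because Hk3 was called higher, Hk1 lower and Hk2 neither, and so that the letters can be read beside those values. Each is the run of 250 bases before an annotated start in RefSeq (GRCm38.p6), 5′ to 3′ on the minus strand, on which all 3 genes lie. Hk1 is shown at chr10:62379909-62380158, Hk2 at chr6:82774455-82774704 and Hk3 at chr13:55021386-55021635. Capitals mark matches on either strand to ACGTG or GCGTG, the core letters of the HIF response element, and to GAGGAA, core letters bound by PU.1, the main myeloid ETS factor.
Hk1: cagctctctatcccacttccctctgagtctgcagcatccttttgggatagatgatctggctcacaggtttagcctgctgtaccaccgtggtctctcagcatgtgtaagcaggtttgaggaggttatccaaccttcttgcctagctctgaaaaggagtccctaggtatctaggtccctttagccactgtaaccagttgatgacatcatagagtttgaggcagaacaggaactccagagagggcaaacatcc
Hk2: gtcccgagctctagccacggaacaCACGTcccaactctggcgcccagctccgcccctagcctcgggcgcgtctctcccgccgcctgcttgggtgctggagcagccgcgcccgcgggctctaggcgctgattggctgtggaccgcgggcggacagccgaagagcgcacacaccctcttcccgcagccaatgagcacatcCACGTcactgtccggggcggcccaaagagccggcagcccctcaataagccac
Hk3: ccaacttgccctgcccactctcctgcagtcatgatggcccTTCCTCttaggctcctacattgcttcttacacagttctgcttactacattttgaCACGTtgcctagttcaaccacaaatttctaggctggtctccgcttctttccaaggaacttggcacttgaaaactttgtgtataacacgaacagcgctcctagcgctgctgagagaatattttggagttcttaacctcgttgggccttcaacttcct
The Hk2 window holds 2 matches to ACGTG and the Hk3 window 1, each read as its reverse complement CACGT, and the Hk3 window holds 1 match to GAGGAA, read as TTCCTC. The letters ACGTG are also contained in the E box CACGTG. The Hk1 window shown holds none of these letters, while the window of another annotated Hk1 start, partly over exons and not printed, holds 3 matches to GCGTG and 1 to GAGGAA. Which Hk1 start the sorted cells use was not tested, and the printed one was picked only for lying outside exons. Of the 35 genes, 34 had an entry (53 windows), and 41 of these windows (77.4%) held ACGTG or GCGTG, against 38.6% of 32851 windows of all genes. The same windows had a median GC content of 59.2%, against 52.4% in all, and the part of base composition in the difference was not tested. GAGGAA occurred in 20.8% of the 53 windows and in 23.3% of all. A match describes letters, not a bound site, and these motifs were chosen after the values were seen.

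Hk3, a hexokinase typical of blood cells (ENSMUSG00000025877.14, chromosome 13, 55005985 to 55021385, minus strand, GRCm38), was at 46.1, 105 and 81.1 CPM in CD206neg for litters 1, 2 and 3. In CD206pos it was at 148, 208 and 269 CPM. Every CD206pos library lay above every CD206neg library. Hk3 rose by a log2 fold change of 1.43 ± 0.32 (SE, n = 3 per group), 2.69-fold between the group means, with an edgeR adjusted p of 0.0426. Hk1, the broadly expressed isoform that binds mitochondria (ENSMUSG00000037012.18, chromosome 10, 62268855 to 62379908, minus strand), went the other way. It was at 78.3, 78.9 and 63.9 CPM in CD206neg and at 24.9, 37.4 and 44.5 CPM in CD206pos, with no overlap between the groups. Hk1 fell by 1.05 ± 0.24 on the log2 scale (edgeR adjusted p = 0.0483), 2.07-fold between the means. Hk2, the isoform induced by hypoxia and growth factors (ENSMUSG00000000628.10, chromosome 6, 82725025 to 82774454, minus strand), was at 104, 155 and 132 CPM in CD206neg. In CD206pos it was at 118, 127 and 112 CPM, within that range. Its log2 fold change was -0.13, with a 95% interval of -0.54 to 0.28 (edgeR adjusted p = 0.808). Both hexokinase calls lie close to the threshold of 0.05. With the litter as a block, Hk1 had an adjusted p of 0.0596 and Hk3 of 0.00879, both by edgeR. Leaving out any 1 of the 6 libraries ended the Hk1 call (adjusted p 0.0584 to 0.186), and leaving out any but CD206pos litter 1 ended the Hk3 call (0.0759 to 0.164), both directions holding throughout. Scaling also decided both calls: Hk1 had an edgeR adjusted p of 0.0502 with RLE scaling, and Hk3 of 0.0514 with upper-quartile scaling and 0.0603 with library totals.

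**Figure D1:**
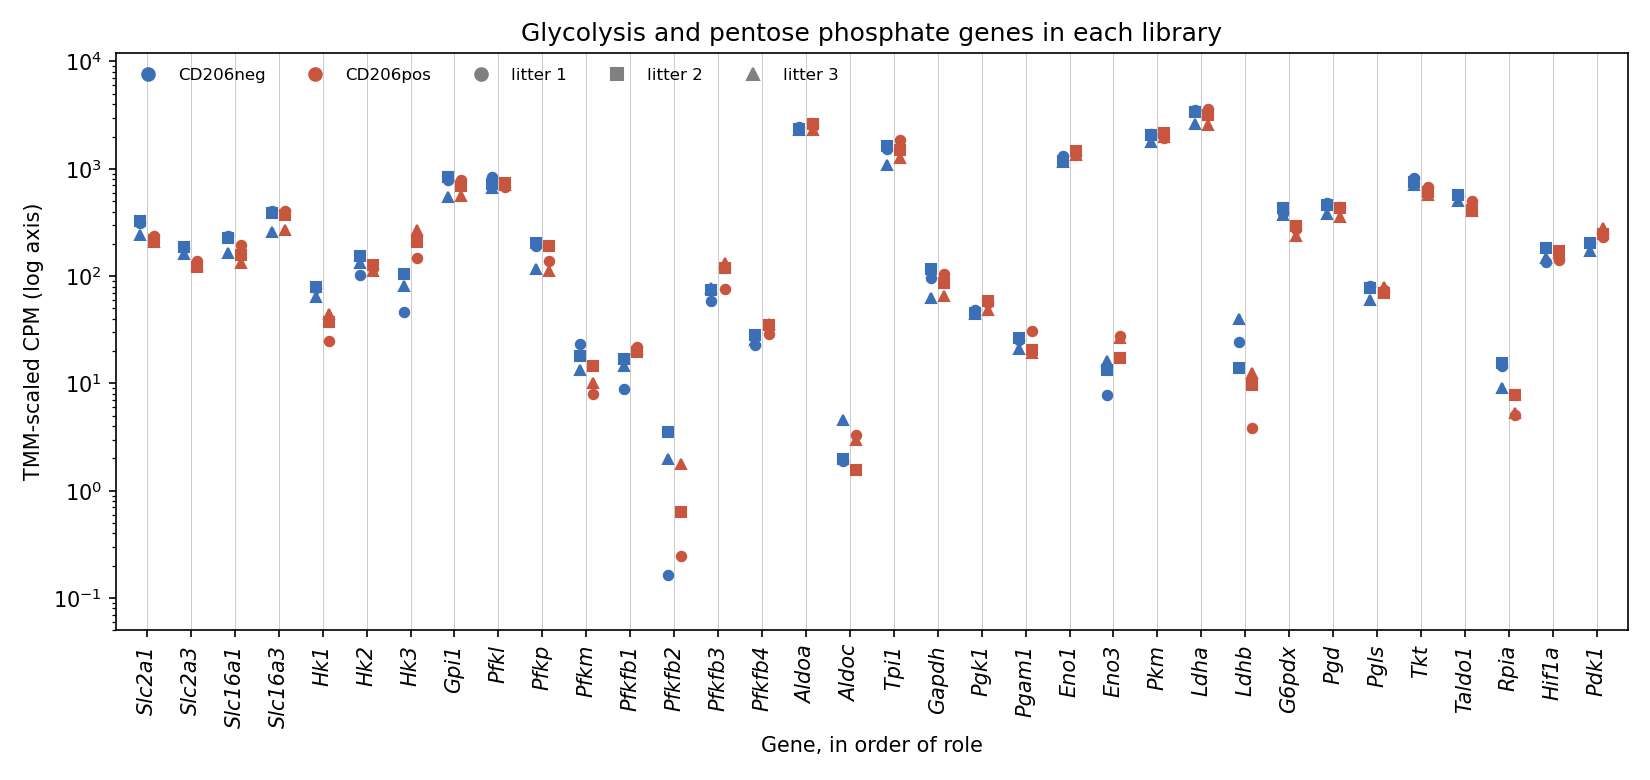
TMM-scaled CPM (log axis) of the 34 tested genes in each of the 6 libraries, in order of role; colour gives the group and marker shape the litter, and Eno2, with 0 reads in 4 libraries, is left out. Hk3 lies at 46.1 to 105 CPM in CD206neg and 148 to 269 CPM in CD206pos, and Hk1 at 63.9 to 78.9 CPM against 24.9 to 44.5 CPM.

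As shares of the step, computed from CPM per kb, Hk3 made up 32.1%, 44.8% and 42.7% of hexokinase transcripts across the CD206neg litters. Across the CD206pos litters it made up 63.8%, 68.8% and 75.3%. Hk1 made up 23.5%, 14.5% and 14.5% against 4.63%, 5.35% and 5.38%. The mean Hk1 share was 17.5% ± 5.2 (SD, n = 3) in CD206neg and 5.12% ± 0.42 in CD206pos, a difference of -12.4 points. Hk2, whose level did not pass the test, held 42.6% ± 1.9 of the step in CD206neg and 25.6% ± 6.1 in CD206pos. None of these shares overlapped between the groups. The ratio of Hk3 to Hk1, both per kb, was 1.37, 3.09 and 2.94 in CD206neg and 13.8, 12.9 and 14.0 in CD206pos. Per kb, Hk3 was the highest hexokinase in all 3 CD206pos libraries, while in CD206neg the ratio of Hk3 to Hk2 was 0.72, 1.10 and 1.00. The lengths used were 8532 bases for Hk1, 5969 for Hk2 and 3682 for Hk3. Before division by length, the means of Hk1, Hk2 and Hk3 were 73.7, 130 and 77.5 CPM in CD206neg. In CD206pos they were 35.6, 119 and 208 CPM. The exact two-sided permutation test over libraries gave p = 0.1 for each of the 3 shares, the smallest p that 3 against 3 allows (adjusted p = 0.34 over 17 shares tested), so no share can pass 0.05. The summed hexokinase level was 51.5 ± 12.4 CPM per kb in CD206neg and 80.6 ± 17.1 CPM per kb in CD206pos, with overlapping groups (exact permutation p = 0.2, adjusted p = 0.36 over 9 step totals).

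**Figure D2:**
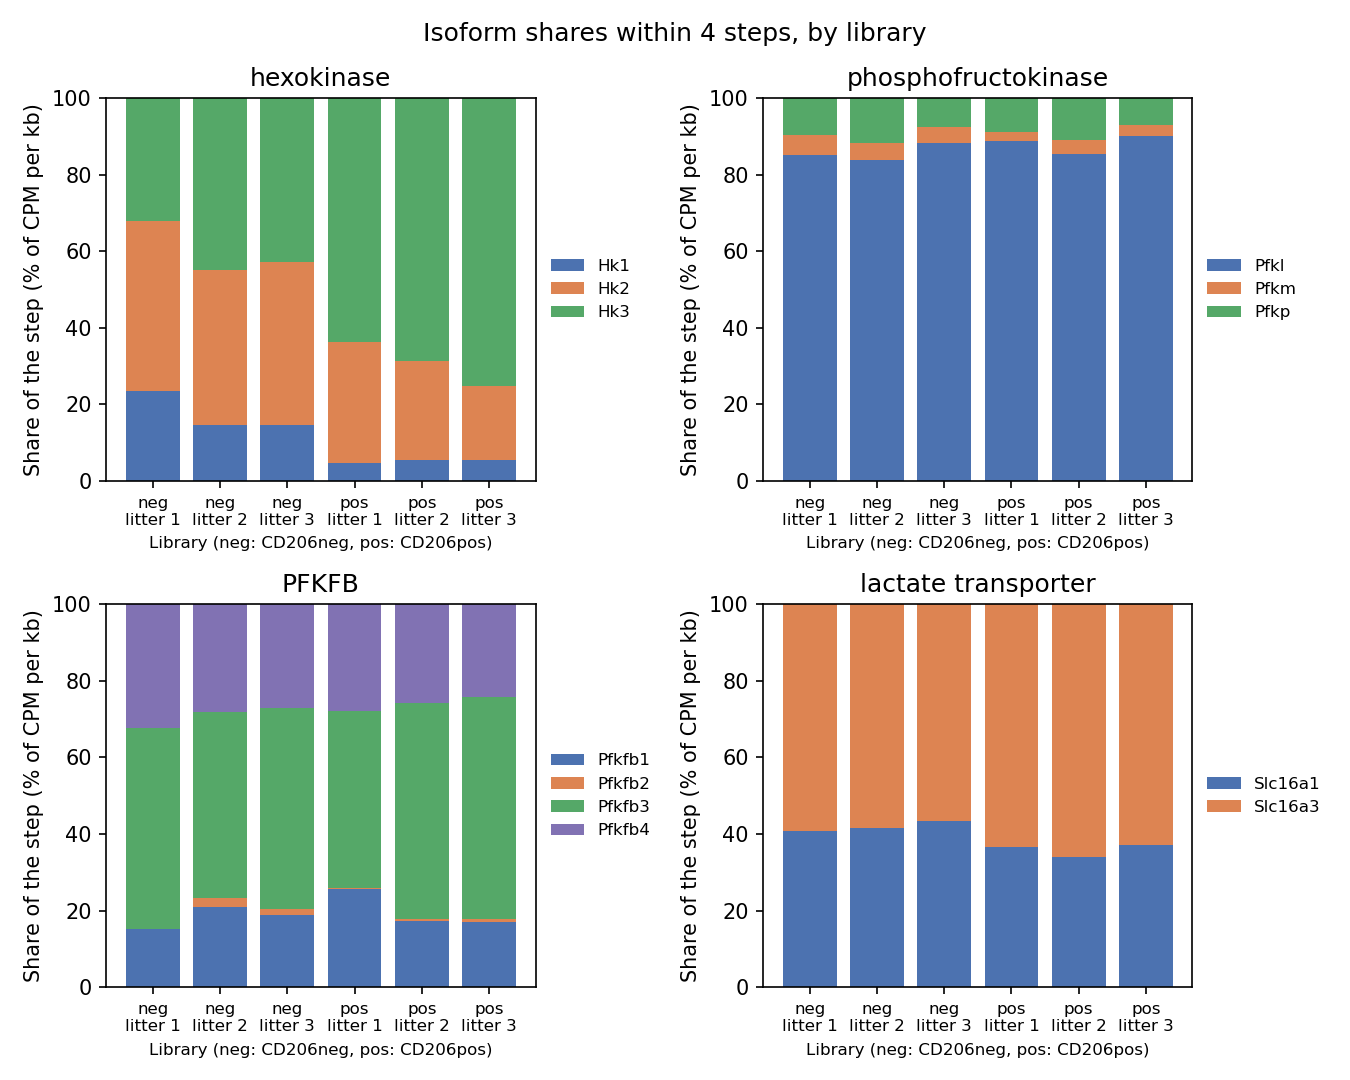
Share of each isoform in the summed CPM per kb of its step (%), 1 bar per library, for hexokinase, phosphofructokinase, the PFKFB enzymes and the lactate transporters. The Hk3 share is 32.1% to 44.8% in the CD206neg bars and 63.8% to 75.3% in the CD206pos bars, while the Pfkl share stays between 83.7% and 89.98% in all 6.

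Hk1 and Hk3 were the only genes of the 34 tested that passed an adjusted p of 0.05. That is 1 called higher (2.94%), against 2.97% of all 12668 tested genes called higher, and 1 called lower (2.94%), against 1.90% of all called lower. The shares lie near the background and are no result about the pathway as a whole. Of all tested genes, 376 were called higher and 241 lower with TMM, and 273 higher and 284 lower with scaling by library totals. At an unadjusted p under 0.05, 4 of the 34 (11.8%) were higher and 7 (20.6%) lower, against 9.53% and 8.05% of all tested genes. DESeq2 called 1 of the 34 higher and 4 lower, against 5.35% and 4.75% of the 14133 genes it tested. All CD206pos libraries lay above all CD206neg libraries for 7 of the 34 (20.6%, against 12.8% of all tested genes) and below them for 8 (23.5%, against 11.8% of all). The 7 were Hk3, Pfkfb1, Pfkfb4, Pgk1, Eno1, Eno3 and Pdk1. The 8 were Hk1, Slc2a1, Slc2a3, Ldhb, G6pdx, Tkt, Taldo1 and Rpia. The median log2 fold change of the 34 was -0.08, against -0.004 for all tested genes. Their summed CPM ranged from 14060 to 17160 in CD206neg and from 14450 to 16870 in CD206pos. Eno2, the neuronal enolase, was not tested, with 27 reads in CD206neg litter 3, 6 in CD206pos litter 1 and 0 in the other 4 libraries.

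**Figure D3:**
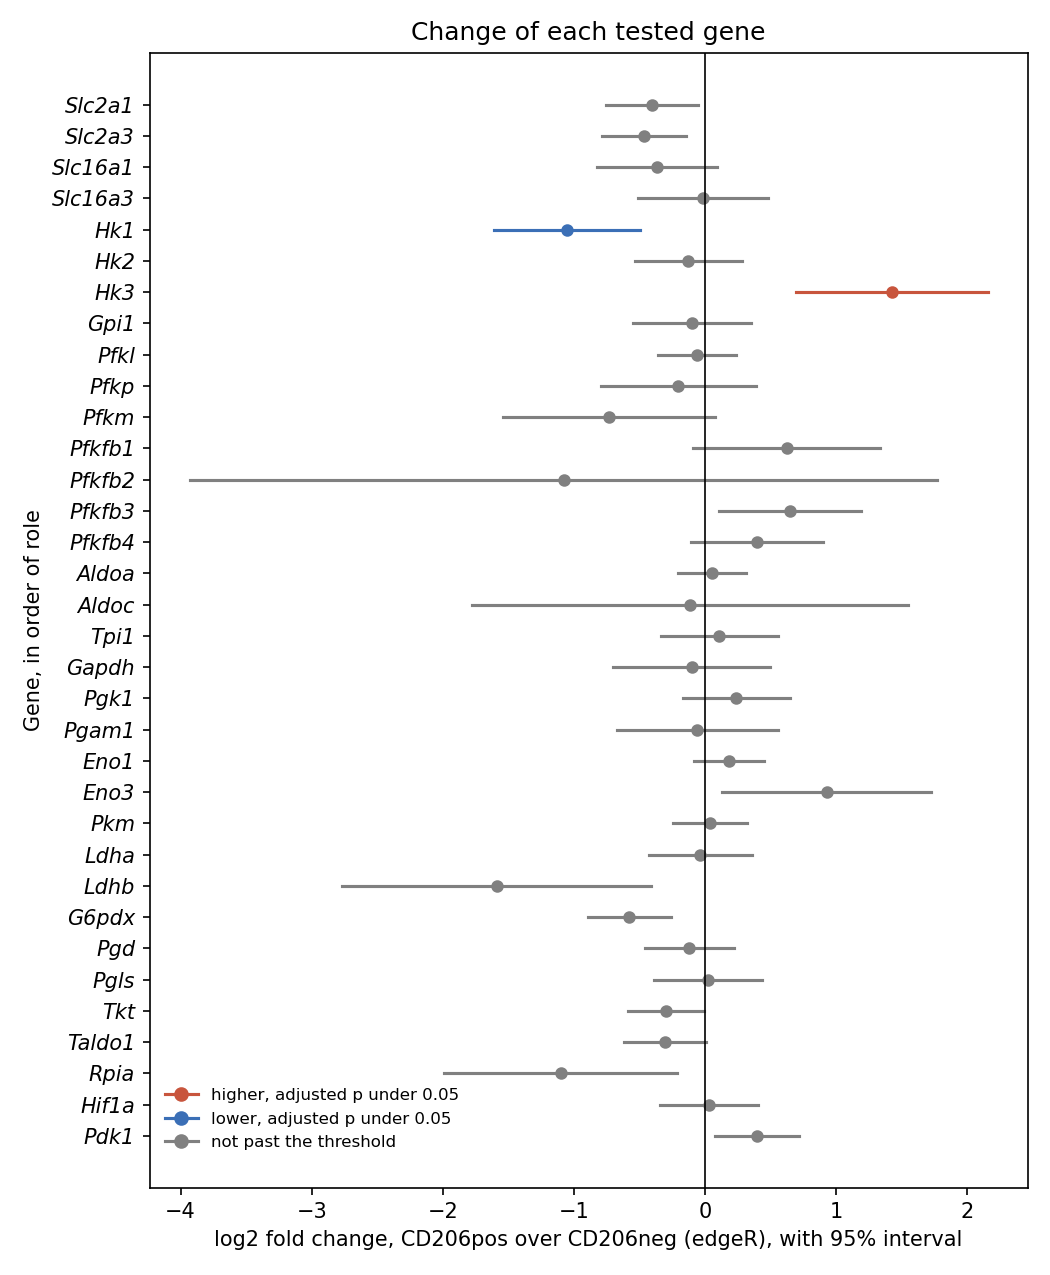
log2 fold change of CD206pos over CD206neg with its 95% interval (edgeR) for the 34 tested genes in order of role; red is higher and blue lower at an adjusted p under 0.05, grey did not pass. Hk3 stands at 1.43 and Hk1 at -1.05, the G6pdx interval runs from -0.90 to -0.26, and those of the aldolase, pyruvate kinase and Ldha genes span 0.

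Glucose enters through Slc2a1 (GLUT1), the basal transporter, and Slc2a3 (GLUT3), a high-affinity one. Slc2a1 was at 311, 326 and 240 CPM in CD206neg and at 237, 215 and 210 CPM in CD206pos. Slc2a3 was at 181, 189 and 162 CPM against 139, 121 and 127 CPM. The groups did not overlap for either gene, though the lowest CD206neg and the highest CD206pos value of Slc2a1 were close. Neither passed the edgeR test: the log2 fold changes were -0.41 ± 0.15 (adjusted p = 0.21) and -0.46 ± 0.14 (adjusted p = 0.119). DESeq2 gave Slc2a3 an adjusted p of 0.0135. Together they summed to 108 ± 15 CPM per kb in CD206neg and 80.7 ± 5.2 CPM per kb in CD206pos, without overlap (exact permutation p = 0.1, adjusted p = 0.225). The Slc2a1 share of that sum was 77.2% ± 1.6 and 78.0% ± 0.6. Lactate leaves through Slc16a3 (MCT4), typical of glycolytic cells, and is carried in either direction by Slc16a1 (MCT1). Slc16a3 was at 407, 386 and 257 CPM in CD206neg and at 405, 368 and 267 CPM in CD206pos. Slc16a1 was at 234, 229 and 163 CPM against 195, 158 and 132 CPM, lower in 3 of 3 litters with overlapping groups (log2 fold change -0.37 ± 0.20, edgeR adjusted p = 0.408). The Slc16a1 share of both was 41.9% ± 1.3 in CD206neg and 36.0% ± 1.7 in CD206pos, without overlap (exact permutation p = 0.1, adjusted p = 0.34). Bsg, the chaperone that brings both lactate transporters to the membrane, was at 447 to 494 CPM against 448 to 511 CPM (edgeR adjusted p = 0.958).

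Gpi1 (glucose phosphate isomerase) was at 792, 843 and 551 CPM in CD206neg and at 794, 695 and 552 CPM in CD206pos, with a log2 fold change of -0.10 (95% interval -0.55 to 0.35). Phosphofructokinase commits sugar to glycolysis. Its liver-type gene Pfkl was at 836, 723 and 666 CPM against 683, 744 and 706 CPM and held 85.7% ± 2.4 of the step's CPM per kb in CD206neg and 88.0% ± 2.4 in CD206pos. Pfkl was the leading isoform in all 6 libraries, in CPM as well as per kb. The lengths used were 6675 bases for Pfkl and 13401 for Pfkp, on which the size of the share depends. The platelet-type Pfkp was at 116 to 202 CPM against 112 to 191 CPM. The muscle-type Pfkm was at 23.2, 17.8 and 13.2 CPM against 8.01, 14.6 and 10.1 CPM, lower in 3 of 3 litters (log2 fold change -0.73 ± 0.36, edgeR adjusted p = 0.341). Its share of the step was 4.66% ± 0.69 against 3.01% ± 0.71, without overlap (exact permutation p = 0.1, adjusted p = 0.34).

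The PFKFB enzymes make and break down the regulatory form of fructose bisphosphate, which activates phosphofructokinase and differs from the form that phosphofructokinase makes. Pfkfb3, the isoform with the highest kinase activity and induced by inflammatory signals, was at 58.2, 74.5 and 76.8 CPM in CD206neg and at 75.1, 119 and 134 CPM in CD206pos. It was higher in CD206pos in 3 of 3 litters, and CD206pos litter 1 lay within the CD206neg range (log2 fold change 0.65 ± 0.24, edgeR adjusted p = 0.196). Pfkfb4 was at 23.0, 28.0 and 25.3 CPM against 29.0, 35.3 and 36.1 CPM, without overlap (0.40 ± 0.22, edgeR adjusted p = 0.422). Pfkfb1, known from liver and muscle, was at 8.88, 17.03 and 14.6 CPM against 22.1, 19.5 and 20.8 CPM, also without overlap (0.62 ± 0.31, edgeR adjusted p = 0.363). Pfkfb2 was the lowest, at 0.16, 3.53 and 1.97 CPM against 0.24, 0.63 and 1.79 CPM, with 3 to 61 reads in a library. The summed PFKFB level was 18.1 ± 3.0 CPM per kb in CD206neg and 26.6 ± 4.7 CPM per kb in CD206pos, 1.47-fold higher without overlap (exact permutation p = 0.1, adjusted p = 0.225). Pfkfb3 held 51.2% ± 2.4 and 53.6% ± 6.3 of that sum.

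Of the abundant genes from aldolase to lactate, 0 of 5 (Aldoa, Tpi1, Eno1, Pkm and Ldha) passed the edgeR test, DESeq2 or an unadjusted edgeR p of 0.05. Aldoa (aldolase A) was at 2451, 2348 and 2324 CPM in CD206neg and at 2524, 2593 and 2280 CPM in CD206pos, and held 99.9% of the aldolase sum in both groups. Its log2 fold change had a 95% interval of -0.21 to 0.32. Pkm (pyruvate kinase M) was at 2115, 2053 and 1770 CPM against 1951, 2168 and 1992 CPM, with an interval of -0.24 to 0.32. Counts per gene do not separate its PKM1 and PKM2 splice forms. Ldha, the lactate dehydrogenase subunit that favours lactate, was at 3563, 3416 and 2617 CPM against 3621, 3163 and 2578 CPM (interval -0.43 to 0.36) and was the highest of the 35 genes per kb in all 6 libraries. Tpi1 (triose phosphate isomerase) was at 1541, 1614 and 1086 CPM against 1838, 1491 and 1248 CPM. In the fit without a litter block, the intervals of Aldoa, Pkm and Ldha leave room for changes of up to 0.43 on the log2 scale. Those of Tpi1 (-0.335 to 0.556) and Eno1 (-0.084 to 0.454) reach further. All these intervals count the spread between litters as error, and intervals within litters were not computed. Aldoc, the brain aldolase, was at 1.55 to 4.57 CPM in all libraries.

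The minor isoforms of the later steps had larger but less certain differences. Ldhb, the heart-type subunit, was at 24.3, 14.0 and 40.2 CPM in CD206neg and at 3.85, 9.57 and 12.6 CPM in CD206pos. It was lower in 3 of 3 litters without overlap, with a log2 fold change of -1.59 ± 0.52 (edgeR adjusted p = 0.145, DESeq2 0.032). The Ldha share of lactate dehydrogenase transcripts was 98.2% ± 1.2 and 99.4% ± 0.4. Eno3, the muscle enolase, was at 7.84, 13.4 and 16.0 CPM against 27.6, 17.1 and 26.3 CPM, higher in 3 of 3 litters (0.93 ± 0.35, edgeR adjusted p = 0.209). Eno1, the ubiquitous enolase, was at 1313, 1178 and 1163 CPM against 1348, 1463 and 1343 CPM (0.19 ± 0.12, edgeR adjusted p = 0.497). Eno1 held 96.8% ± 1.2 of the enolase sum in CD206neg and 94.9% ± 1.4 in CD206pos, with overlapping groups. The enolase sum itself was 234 ± 13 CPM per kb against 271 ± 9 CPM per kb, without overlap (exact permutation p = 0.1, adjusted p = 0.225).

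Gapdh, Pgk1 and Pgam1, the enzymes between triose phosphate and enolase, had few counts for genes of central metabolism. Gapdh was at 95.4, 115 and 62.6 CPM in CD206neg and at 104, 85.7 and 65.0 CPM in CD206pos, or 15.2 to 27.9 CPM per kb. Aldoa had 606 to 689 CPM per kb in the same libraries. Pgk1 was at 44.7 to 48.7 CPM against 48.8 to 58.1 CPM, and Pgam1 at 21.0 to 26.7 CPM against 19.3 to 30.6 CPM. Of the 50-base stretches of the annotated Gapdh transcripts, 25.1% also occurred in another annotated gene, spread over 219 genes of which 209 were pseudogenes. These pseudogenes together held 596 to 843 reads per library. The shared part was 53.9% for Pgk1, 36.2% for Pgam1, 26.0% for Eno1 and 25.4% for Pkm, and it was 0% for Hk2 and Hk3 and 1.22% for Hk1. It also includes sequence of genes annotated over the same exons. Such overlap covered 15.3% of the exon bases of Pkm (Gm49759) and 0% of those of Eno1. It covered 20.6% for Pgls, 19.5% for Pfkfb2 and 11.5% for Gpi1. Near copies of these genes elsewhere in the genome were not searched, and reads that map to several places are left out by the counter's default, so the counts of such genes can be too low. A change between the groups compares the same counted part of a gene on both sides.

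**Figure D4:**
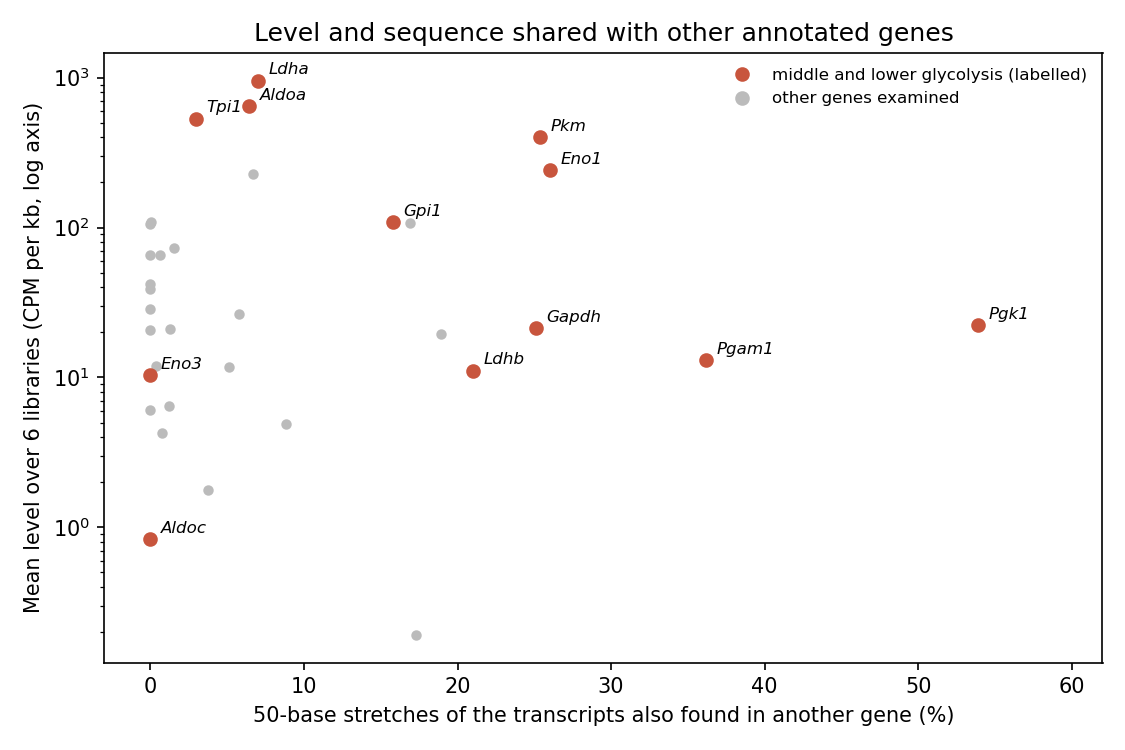
Mean level over the 6 libraries (CPM per kb, log axis) against the share of 50-base stretches of a gene's transcripts that also occur in another annotated gene (%), with middle and lower glycolysis in red and the other genes in grey (Eno2 left out). Pgk1 has 53.9% shared, Gapdh 25.1%, Aldoa 6.43%, Eno1 26.0% and Pkm 25.4%. Sequence of genes annotated over the same exons, as for Pkm, counts as shared.

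In the pentose phosphate pathway, 5 of 6 genes were lower in CD206pos in 3 of 3 litters, and 0 passed the edgeR test. The share of all tested genes lower in 3 of 3 litters was not computed, so that count is no result about the pathway. Of the 6, 3 were lower at an unadjusted edgeR p under 0.05, against 8.05% of all tested genes. DESeq2 called 1 lower, against 4.75% of the genes it tested. G6pdx, glucose phosphate dehydrogenase, the enzyme that opens the pathway (ENSMUSG00000031400.10, chromosome X, 74409483 to 74429194, minus strand), was at 385, 435 and 372 CPM in CD206neg. It was at 272, 292 and 235 CPM in CD206pos, with every value under the CD206neg range. Its log2 fold change was -0.58 ± 0.14 with an edgeR adjusted p of 0.0536, just outside the threshold. With the litter as a block the edgeR adjusted p was 0.0271, and DESeq2 gave 0.00171. G6pdx passed under 7 of 19 alternatives, none of which left out a library. Its exons overlap those of Ikbkg over 13.6% of their bases, and reads there are not counted. Rpia, ribose phosphate isomerase, was at 14.4, 15.6 and 9.02 CPM against 5.07, 7.79 and 5.32 CPM, without overlap (-1.10 ± 0.39, edgeR adjusted p = 0.18). Tkt (transketolase) was at 823, 751 and 702 CPM against 672, 604 and 576 CPM (-0.30 ± 0.13, edgeR adjusted p = 0.272). Taldo1 (transaldolase) was at 555, 568 and 504.2 CPM against 503.9, 410 and 404 CPM (-0.30 ± 0.14, edgeR adjusted p = 0.298), its groups parting by a margin of under 1 CPM. Pgd, phosphogluconate dehydrogenase, was at 485, 464 and 379 CPM against 438, 428 and 356 CPM (-0.12 ± 0.15). Pgls, the lactonase, was at 59.7 to 81.5 CPM against 69.0 to 78.4 CPM (0.02 ± 0.18). The summed level of the 6 genes was 606, 613 and 536 CPM per kb in CD206neg and 512, 462 and 428 CPM per kb in CD206pos, without overlap (0.80-fold, exact permutation p = 0.1, adjusted p = 0.225 over 9 step totals). The cell cycle, blood progenitor and granulocyte precursor sums given above were also lower in CD206pos, and their part in this difference was not tested.

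Of the regulators, Hif1a, the oxygen-regulated subunit of HIF1, was at 135, 182 and 148 CPM in CD206neg and at 142, 170 and 163 CPM in CD206pos (log2 fold change 0.03, 95% interval -0.34 to 0.40). Pdk1, which holds pyruvate back from mitochondria by inhibiting pyruvate dehydrogenase, was at 204, 204 and 172 CPM against 234, 249 and 279 CPM. Every CD206pos library lay above every CD206neg library (0.40 ± 0.14, edgeR adjusted p = 0.185). Its relative Pdk3 was at 112 to 134 CPM against 93.8 to 114 CPM (edgeR adjusted p = 0.491). Pdk2 was at 1.25 to 3.66 CPM against 0.86 to 10.2 CPM, and Pdk4 at 0.46 to 1.80 CPM against 0 to 1.27 CPM.

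Around these genes, 89 others in 8 lists of neighbouring functions passed the filter, and 4 of them (4.49%) were called, against 4.87% of all tested genes in either direction. That share is near the background, and the 4 are given as single genes. Among 10 tested hexose transporters and sugar kinases, Slc2a8 (GLUT8), an intracellular transporter, rose from 15.4, 12.6 and 22.6 CPM to 45.2, 77.3 and 54.5 CPM (log2 fold change 1.81, edgeR adjusted p = 0.0134). Its call ended without CD206neg litter 1 (0.0698), CD206neg litter 2 (0.079) or CD206pos litter 2 (0.0748). Slc2a6 (GLUT6), a transporter of lysosomes, fell from 10.3, 26.5 and 22.2 CPM to 4.95, 4.70 and 2.43 CPM (-2.29, edgeR adjusted p = 0.0305, and 0.0561 with the litter block). Among 19 tested genes of gluconeogenesis and glycogen, Fbp2, the muscle fructose bisphosphatase, fell from 3.70, 3.36 and 1.64 CPM to 0 reads in all CD206pos libraries. Set against 3 reads over the CD206pos group, it was at least 49.4-fold lower (edgeR adjusted p = 0.0293, and 0.0929 with the litter block). Leaving out any library but CD206neg litter 1 ended the Slc2a6 call, and leaving out any of the 6 ended the Fbp2 call. Among 16 tested HIF target genes, Plin2, a lipid droplet coat protein, rose from 946, 867 and 904 CPM to 1563, 1498 and 1676 CPM (0.80, edgeR adjusted p = 0.0071, and 0.0566 without CD206neg litter 2). DESeq2 also called Slc2a5 and P4ha2 in these lists, named here after their values were seen. Slc2a5 (GLUT5), a fructose transporter, was at 18.6, 18.1 and 25.2 CPM against 32.3, 42.3 and 59.2 CPM (edgeR adjusted p = 0.0678, and 0.0421 with the litter block). P4ha2, a collagen prolyl hydroxylase subunit and HIF target, was at 4.52, 2.14 and 2.88 CPM against 16.2, 7.45 and 13.9 CPM (edgeR adjusted p = 0.0593, and 0.0493 with the litter block). Neither overlapped between the groups. Other HIF targets named for comparison did not pass: Bnip3 was at 20.2 to 23.0 CPM against 26.4 to 33.5 CPM (edgeR adjusted p = 0.275), Ero1l at 91.5 to 161 CPM against 98.1 to 101 CPM, and Vegfa had 1 read in all. None of 6 further glycolysis isoforms, 8 further pentose phosphate genes, 13 genes of pyruvate entry, 8 of the HIF pathway or 9 other regulators was called by edgeR. At an unadjusted p under 0.05 these lists had 0, 2, 1, 1 and 2 genes, and DESeq2 called Prps2, Egln3 and Trp53 among them, likewise named after their values were seen. Egln3, of the HIF pathway list, was at 33.9, 12.9 and 20.7 CPM against 3.91, 10.4 and 4.86 CPM (log2 fold change -1.82, edgeR adjusted p = 0.0862). Trp53 was at 343 to 415 CPM against 287 to 292 CPM (-0.37, edgeR adjusted p = 0.173). Prps2 was higher, at 112 to 124 CPM against 163 to 171 CPM (0.48, edgeR adjusted p = 0.089). Of the same lists, Bpgm, which makes bisphosphoglycerate, was at 24.1 to 30.5 CPM against 20.0 to 28.1 CPM, and Txnip, an inhibitor of glucose uptake, at 121 to 199 CPM against 133 to 186 CPM. Pklr and Fbp1, with at most 3 and 56 reads in a library, were not tested.

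Several of the abundant genes were lowest in the litter 3 libraries of both groups, a pattern picked out after the values were seen. For 8 of the 34 (23.5%), both litter 3 libraries lay below the other 4, against 5.68% of all tested genes. The 8 were Slc16a3, Gpi1, Pfkp, Aldoa, Tpi1, Gapdh, Ldha and Pgd. Litter 3 was at 75.5% of the mean of litters 1 and 2 for Ldha, at 70.6% for Gpi1, at 72.01% for Tpi1 and at 92.9% for Aldoa, and the lowest was Pfkp at 63.4%. The same held for litter 1 in 2 of the 34, against 7.89% of all tested genes, and for litter 2 in 0 of the 34, against 4.6%. Within each litter Ldha was at 3563 and 3621, 3416 and 3163, and 2617 and 2578 CPM in CD206neg and CD206pos. The same libraries had the highest mesenchyme sums, led by collagen genes. Col3a1 was at 30.3 and 30.8 CPM in the litter 3 libraries and at 0 to 0.98 CPM in the other 4. Col1a1 was at 17.5 and 18.7 CPM against 0 to 0.79 CPM, and Col1a2 at 13.9 and 6.94 CPM against 0 to 2.12 CPM. Pdgfra, Pdgfrb, Twist1, Dcn and Postn were not highest in both litter 3 libraries. Pdgfrb was highest in CD206neg litter 2 (8.86 CPM, against 2.31 and 2.37 CPM in litter 3). Dcn was highest in CD206pos litter 1 (6.48 CPM, against 2.82 and 1.97 CPM). No label says how the litters differ, and the part of mesenchyme RNA in the litter 3 values was not tested.

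**Figure D5:**
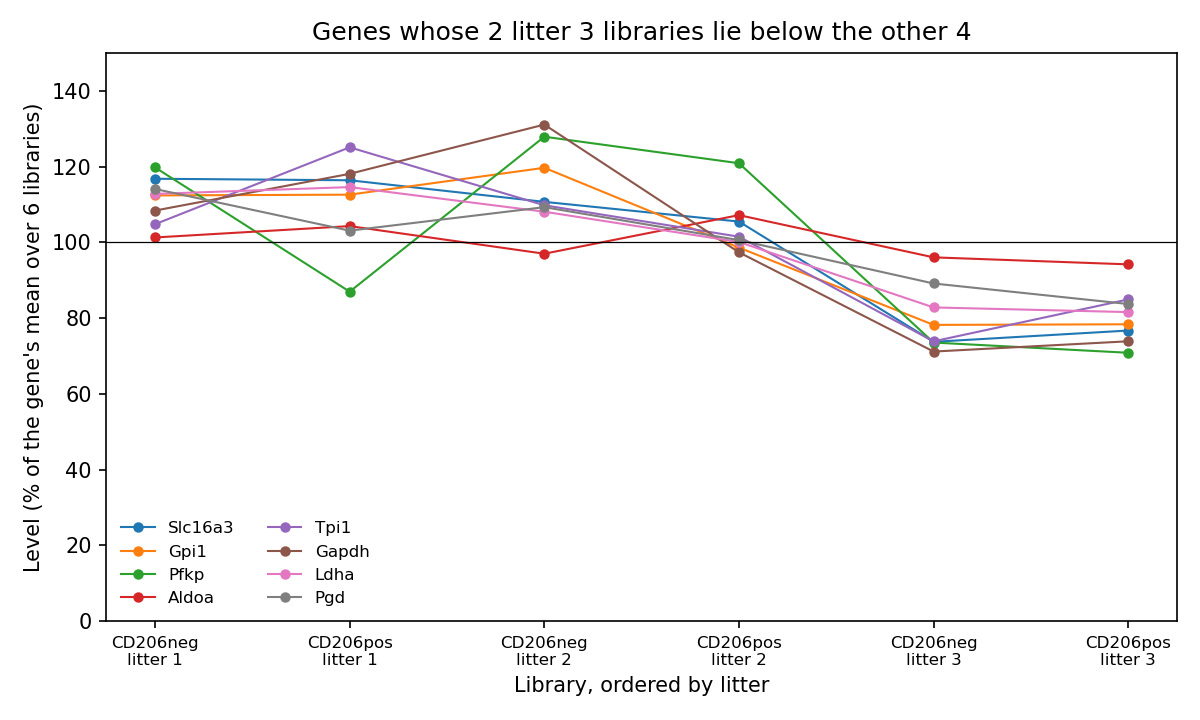
Level of the 8 genes whose litter 3 libraries lie below the other 4, as a percentage of each gene's mean over the 6 libraries, with libraries ordered by litter; lines only join the points of a gene. The choice of these genes itself puts all points of litter 3 under 100%. Those points range from 70.9% to 96.0% over CD206neg and CD206pos.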

How the data were processed

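RNA-seq read counts of 6 libraries were analysed, 3 CD206neg and 3 CD206pos, grouped by the labels. The authors deposited raw counts per gene, made with featureCounts 1.5.2 on exons of GENCODE M14 with no option for strand, multi-mapping or overlapping features, per the file headers; the submitters' processing notes also name STAR 2.3, mm10 and GRCm38.p5. The sources used here do not give read length, strandedness or batch. Symbols came from GENCODE M21 by identifier (51633 of 51912 matched), and coordinates are those of the files. Counts were filtered with filterByExpr, scaled by TMM and tested with edgeR 4.0.16 (R 4.3.3, quasi-likelihood, robust, no block), with Benjamini-Hochberg adjustment over 12668 genes and calls under 0.05. Isoform shares used CPM per kb of exon length as the files list it, with exact two-sided permutation tests (scipy 1.17.1). DESeq2 1.42.0 and limma-voom (limma 3.58.1), other scalings, filters and left-out libraries were alternatives. The edgeR script was tested on simulated data. SEs and 95% intervals of log2 fold changes come from the edgeR fit without a block and include the spread between libraries, also that between litters. The value of 3 reads covers counting error only, since reads carry no molecular identifiers.

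Deviations from group means over tested genes correlated across libraries with the same number at 0.155, 0.059 and 0.216 for litters 1 to 3. Libraries with unlike numbers gave -0.194 to 0.038, the highest between CD206neg litter 2 and CD206pos litter 1. Deviations from a group mean sum to 0, so positive values at like numbers bring lower ones at unlike numbers by construction. The pairing comes from the titles' numbers and the design text, which names 3 litters. All 35 genes were named, and of other lists the called genes, at most 4 per list and direction, plus a fixed set (Bpgm, Pklr, Fbp1, Txnip, Pdk2 to Pdk4, Bsg, Vegfa, Bnip3, Ero1l, Mrc1, Csf1r, Kit). The genes, lists and rules were chosen with earlier results of these data known. Csf1r, the gene whose promoter drives the transgene, was at 1489 to 1781 CPM in CD206neg and 1619 to 2833 CPM in CD206pos. Upstream sequences are from RefSeq (GRCm38.p6).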

Additional observations from a re-analysis of the deposited data

How the results depend on the processing

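With the litter as a replicate block, 703 genes were called in place of 617 (436 higher). Prps2, Egln3 and Trp53 are left out of the next count. Among the other glycolysis, pentose phosphate and neighbouring genes given with values, this paired fit ended the calls of Hk1, Slc2a6 and Fbp2. It added G6pdx, Slc2a5 and P4ha2 and changed no other call. DESeq2 called 1428 genes. Leaving out a library or a litter left 3 to 561 genes called, the lowest without litter 2, and any library but CD206pos litter 1 moved the count by over 1.5 times; the left-out fits have fewer samples. The count of glycolysis and pentose phosphate genes called higher was 0 with upper-quartile scaling and 0 with library totals, and 0 to 1 over the left-out fits. The count called lower was 2 with upper-quartile scaling, 2 with library totals, 2 with the stricter filter, 2 with limma-voom and 4 with DESeq2, and 0 over all left-out fits. The causes of these changes were not tested, other than the sample number of the left-out fits.

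Of the 34 genes, 21 kept their sign under every alternative and 13, none of them called, changed it under at least 1. With library totals, Aldoa was at -0.033, Pkm at -0.045, Pgls at -0.062, Hif1a at -0.057 and Bsg at -0.063, and with upper-quartile scaling Pgls was at -0.001 and Bsg at -0.003. Over the left-out fits the log2 fold changes ranged from -0.19 to 0.11 (Slc16a3), -0.268 to 0.018 (Hk2), -0.266 to 0.02 (Gpi1), -0.159 to 0.063 (Pfkl), -0.026 to 0.078 (Aldoa), -0.54 to 0.42 (Aldoc), -0.049 to 0.218 (Tpi1), -0.313 to 0.105 (Gapdh), -0.302 to 0.07 (Pgam1), -0.049 to 0.122 (Pkm), -0.162 to 0.051 (Ldha), -0.178 to 0.112 (Pgls) and -0.058 to 0.167 (Hif1a). The same ranges were -0.269 to 0.062 (Txnip), -0.84 to 1.63 (Pdk2), -1.22 to 0.45 (Pdk4) and -0.035 to 0.069 (Bsg). The difference in the Aldoa share of aldolase transcripts ranged from -0.02965 to 0.03858 points and that in the Slc2a1 share of glucose transporter transcripts from -0.09301 to 1.312 points; the other 6 shares kept their sign, with Hk1 between -13.9 and -9.40 points. Low read numbers limit Pfkfb2, Aldoc, Eno2, Pdk4, Fbp2 and, outside CD206pos litter 3, Pdk2; the stricter filter leaves Fbp2 out.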
